A study of Mus musculus with 2 samples.

Results

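The Scn9a Gria1 Tacr3 cells are 187 stromal cells among the 11563 cell barcodes of 2 single-cell RNA libraries of newborn mouse kidney. They numbered 76 of 5991 barcodes in the Flcn KO library and 111 of 5572 in the Flcn WT library. A member passed 3 steps. Its barcode held at least 1000 UMIs (unique molecular identifiers, each counting 1 captured RNA molecule) and 500 genes, with at most 20% of UMIs from mitochondrial genes. It counted as stroma when Col1a2 and Col3a1 made up at least 5 of every 10000 UMIs, Pecam1 and Ptprc were at 0 and Foxd1 had at most 1 UMI. Scn9a, Gria1 and Tacr3 then summed to at least 3 UMIs and to more than each of 3 other marker sums, which were Kcnip1, Nrxn3 and Cck, Slco1a4, Dkk1 and Sorcs1, and Clca3a1, Dpep1 and Hhip. The members were chosen by the UMIs of these genes, so their levels describe the choice and are no result. Expression of the other genes in these cells was not used by the rule, although the marker genes themselves came from an earlier reading of the same libraries.

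Both libraries came from kidneys at postnatal day 0 that carry the Cre recombinase under Six2, a gene of nephron progenitors. The KO animals were Six2Cre; Flcn flox/flox and the animals labelled WT were Six2Cre; Flcn flox/+, so the WT library also carries Cre and 1 floxed allele. The tissue label reads embryonic kidney, and the number of kidneys or animals behind each library is not given in the sources used here. With 1 library per genotype, animal, library and genotype cannot be told apart, no test was possible and every interval covers counting error only. Nephron progenitor markers summed to 195 UMIs in 57 KO members and 337 in 93 WT members, of which Gdnf, the ligand that drives ureteric branching, gave 170 and 273. Six2 itself had 0 UMIs over the KO members and 7 over the WT members, and Cited1 had 1 and 1. KO and WT therefore name the library of a member, and whether Flcn was deleted in the members was not tested. The libraries held 149679281 (KO) and 147390790 (WT) UMIs, members had a median of 15101 and 17077 UMIs per cell, and of 5 barcodes that occur in both libraries 0 were members. Among the members, 1 KO cell and 2 WT cells carried many UMIs of proximal tubule genes, and results that rest on them are given without them too.

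The renal stroma is the mesenchyme between the tubules. Its progenitors express the transcription factor Foxd1, lie around the nephrogenic zone under the capsule, and give rise to cortical and medullary interstitial cells, mesangial cells, pericytes and renin cells. They also feed signals to the nephron progenitors and the ureteric bud, among them retinoic acid and ligands that control branching and nerve and vessel growth. Scn9a encodes the voltage-gated sodium channel Nav1.7 and Gria1 the AMPA-type glutamate receptor subunit GluA1. Tacr3 encodes the neurokinin B receptor, and Cntn4 the neural adhesion molecule contactin-4. All 4 are best known from neurons.

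On GRCm38, Scn9a lies on the minus strand of chromosome 2 at 66480080 to 66634962, beside Scn1a at 66270778 to 66440840 on the same strand. Gria1 is at 57011387 to 57330244 on the plus strand of chromosome 11, the chromosome that also holds Flcn at 59791408 to 59810016 on the minus strand. Tacr3 is at 134829007 to 134934579 on the plus strand of chromosome 3 and Cntn4 at 105677660 to 106699310 on the plus strand of chromosome 6. The 120 bases before the start of Scn9a (chr2:66634963-66635082, minus strand) and Tacr3 (chr3:134828887-134829006, plus strand) are shown because these genes define the cells. They are from RefSeq on GRCm38.p6, 5′ to 3′, with the TATA box motif in capitals.
Scn9a: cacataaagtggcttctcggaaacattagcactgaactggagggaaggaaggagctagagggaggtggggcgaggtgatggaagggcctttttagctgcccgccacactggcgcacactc
Tacr3: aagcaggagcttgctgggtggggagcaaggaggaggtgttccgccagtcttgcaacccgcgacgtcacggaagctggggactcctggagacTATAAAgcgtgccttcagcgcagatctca
Both strands were searched for the TATA box as TATAAA, the GC box as GGGCGG, the E-box as CACGTG and a forkhead motif as GTAAACA, with overlaps allowed. Tacr3 held the TATA box, which stands in 6.34% of the 32851 RefSeq starts read over the same length. Scn9a held none of these motifs in this window. Of all starts, 26.5% hold the GC box, 3.66% the E-box and 1.36% the forkhead motif.

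Gria1 carried most of the choice. Members held a median of 7 UMIs over the 3 genes in the KO library and 9 in the WT library, with highest cells at 32 and 54. Gria1 gave 545 of the 748 UMIs in KO members (72.9%) and 1137 of 1397 in WT members (81.4%), and was seen in 70 of 76 and 105 of 111 cells. Scn9a was seen in 30 KO and 44 WT members and Tacr3 in 31 and 43, and all 3 genes together in 11 and 18. At the edge of the rule, 10 KO and 11 WT members had exactly 3 UMIs, and 9 and 8 stromal cells with 2 UMIs, also leading, were left out. A further 59 KO and 54 WT stromal cells had 3 or more UMIs but at least as many of another marker sum.

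Set side by side, Gria1 measured 459 CPM (counts per 1000000 nuclear-encoded UMIs) in KO members and 562 CPM in WT members. Scn9a stood at 67.3 and 61.8 CPM and Tacr3 at 103 and 66.7 CPM. Cntn4, a marker that the rule did not use, had 322 UMIs in 47 of 76 KO members (271 CPM) and 540 UMIs in 70 of 111 WT members (267 CPM). Its KO over WT ratio was 1.02, with an exact 95% counting interval of 0.881 to 1.17. The interval holds 1. Cntn4 was 5.57-fold (KO) and 4.05-fold (WT) above the other stroma, but as a marker of this group it was picked from the same libraries, and it was in 59.6% (KO) and 51.5% (WT) of Foxd1-positive stromal cells, against 61.8% and 63.1% of members. Gria1 chose most of the members, so its shares against other cells were set by the rule and are no result. Cells thinned to 5000 UMIs held Gria1 in 73.0% of KO members and 80.9% of WT members. Thinned Foxd1-positive stromal cells held it in 13.7% (KO) and 16.6% (WT), and thinned endothelial cells in 0.851% and 0.318%. Unthinned shares were 92.1% and 94.6% of members (median depth 15101 and 17077 UMIs), against 1.65% and 1.23% of endothelial cells (28021 and 26935 UMIs).

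A smaller share of stromal cells met the rule in the KO library. Members made up 76 of 1604 stromal cells in the KO library (4.74%, exact 95% interval 3.75 to 5.89%) and 111 of 899 in the WT library (12.3%, 10.3 to 14.7%). Of all cells past the quality filter they were 1.51% (1.19 to 1.88%) in KO and 2.65% (2.19 to 3.18%) in WT. The Slco1a4 Dkk1 Sorcs1 group was also a smaller part of the stroma in the KO library, at 12.8% in KO and 20.1% in WT, whereas the Kcnip1 Nrxn3 Cck group stood at 22.9% in KO and 17.7% in WT and the Clca3a1 Dpep1 Hhip group at 23.3% in KO and 21.0% in WT. Stroma as a whole was 31.8% of filtered KO cells and 21.5% of filtered WT cells, so the denominators differ too. The filter on mitochondrial UMIs removed 11.6% of KO barcodes and 17.7% of WT barcodes, and the part of this filter in the shares was not tested.

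**Figure D1:**
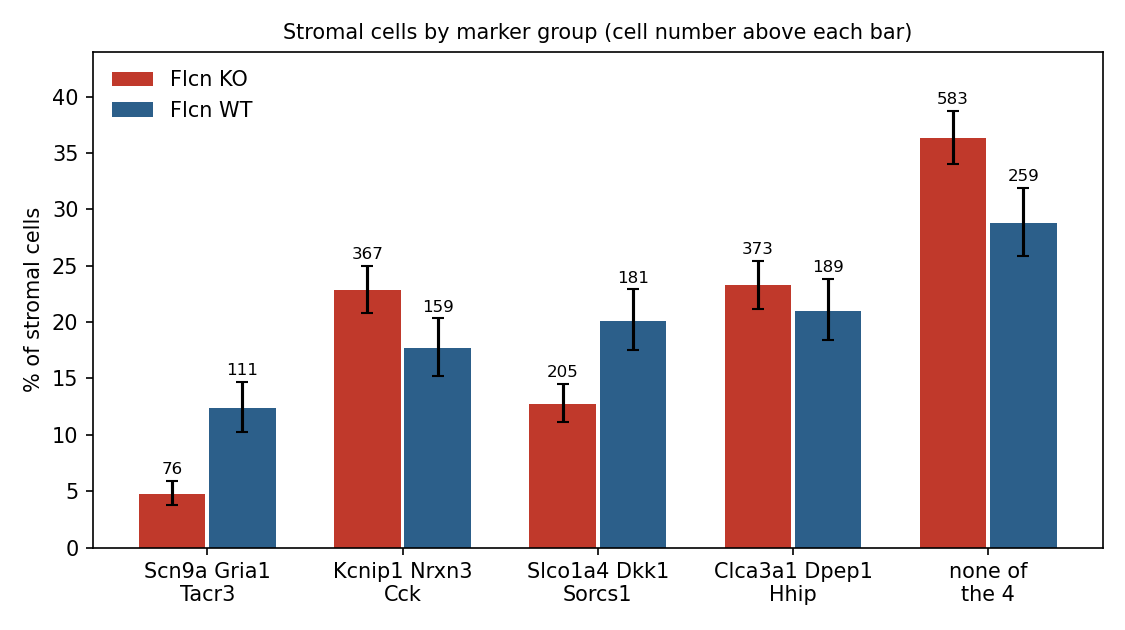
Share of stromal cells (y axis, %) in each marker group (x axis), with the Flcn KO library left of the Flcn WT library; error bars are exact 95% binomial intervals and cover counting error only. The Scn9a Gria1 Tacr3 cells are 4.74% of KO and 12.3% of WT stroma, with 76 and 111 cells.

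Levels over all stromal cells take in the stromal cells that are not members, but not Foxd1-positive stroma. Over the stroma, Gria1 measured 36.2 CPM in KO and 100 CPM in WT, a ratio of 0.362 (0.332 to 0.393). Gria1 chose most of the members, so this value restates their share and is no separate result. Cntn4 was at 59.3 and 93.7 CPM over all stroma (0.633, 0.588 to 0.682) and at 1.02 in members. Ntn1 was at 46.1 and 90.1 CPM over all stroma (0.512, 0.472 to 0.554) and had a ratio of 1.05 (0.931 to 1.17) in members. In such summed values, fewer cells of a type and less RNA per cell cannot be told apart. Here both the share and the level within members are given. Stroma that are not members differed too. In stroma outside the 4 marker groups, unthinned, Cntn4 was in 15.3% of KO and 23.2% of WT cells, and Ntn1 in 11.5% and 21.6%. Unthinned shares in the Kcnip1, Slco1a4 and Clca3a1 groups were also lower in KO. After thinning, Ntn1 in the Slco1a4 group was at 17.9% (KO) and 17.3% (WT). The part of members and of other stroma in the ratios over all stroma was not tested.

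Several genes of nephrogenic zone stroma were higher in these cells than in other stroma in both libraries: of 7 listed and measured, Ntn1, Fibin and Aldh1a2 were at least 2-fold higher and 1 at least 2-fold lower. Netrin-1 (Ntn1), a secreted guidance protein, had 482 UMIs in KO members (406 CPM) and 785 UMIs in WT members (388 CPM), 14.5-fold and 9.20-fold over the other stroma. R-spondin 3 (Rspo3), which amplifies Wnt signalling, stood at 214 and 290 CPM, 14.1-fold and 7.01-fold over other stroma. Aldh1a2, the enzyme that makes retinoic acid in stroma, was 4.30-fold and 2.55-fold higher and Fibin 7.36-fold and 3.81-fold. Gdnf was 6.10-fold and 3.30-fold higher, at 143 CPM in KO members and 135 CPM in WT members, and was the 1 of 4 measured nephron progenitor markers that passed 2-fold higher, while 2 passed 2-fold lower. Other stroma here means every stromal cell outside the members, which includes mural and smooth muscle cells, and with 1 library per genotype these folds are descriptions. Of 12760 genes measured, 216 (1.69%) were at least 2-fold higher and 704 (5.52%) at least 2-fold lower in members in both libraries, and without the 3 members with tubule RNA these counts were 217 and 859 of 12733. Against the 3 other marker groups pooled, 210 of 11974 genes (1.75%) were higher and 597 (4.99%) lower by the same measure.

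The 20 highest of these genes over other stroma were led by Tnfrsf11b, the decoy receptor osteoprotegerin, at 21.9 CPM in KO and 38.1 CPM in WT members, 17.1-fold and 14.9-fold higher. Cntnap2, a partner of the contactins, was 10.2-fold and 12.7-fold higher, but all its UMIs lay in 6 members of each library. Igfbp6, which binds IGF2, was 13.1-fold and 9.27-fold higher and lay in 42 KO members out of 76 and 62 WT members out of 111. The synaptic adhesion gene Il1rapl2 was 11.7-fold and 8.85-fold higher, the follistatin-like Fstl4 13.9-fold and 7.58-fold, and Scx, the tendon transcription factor scleraxis, 13.1-fold and 6.97-fold. Phex, a membrane endopeptidase of phosphate balance, stood 9.51-fold and 5.52-fold higher, Cadm1, an adhesion molecule, 9.22-fold and 4.95-fold, and the gap junction gene Gja1 7.16-fold and 4.72-fold. Nwd2, Tmem117, Mcf2, Hmgcll1, Tmem196, Rab27a, Lratd1 and Mecomos were also among the 20, besides Ntn1 and Rspo3, and these 8 genes ran from 5.51-fold to 23.4-fold in KO and from 5.18-fold to 7.77-fold in WT.

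**Figure D2:**
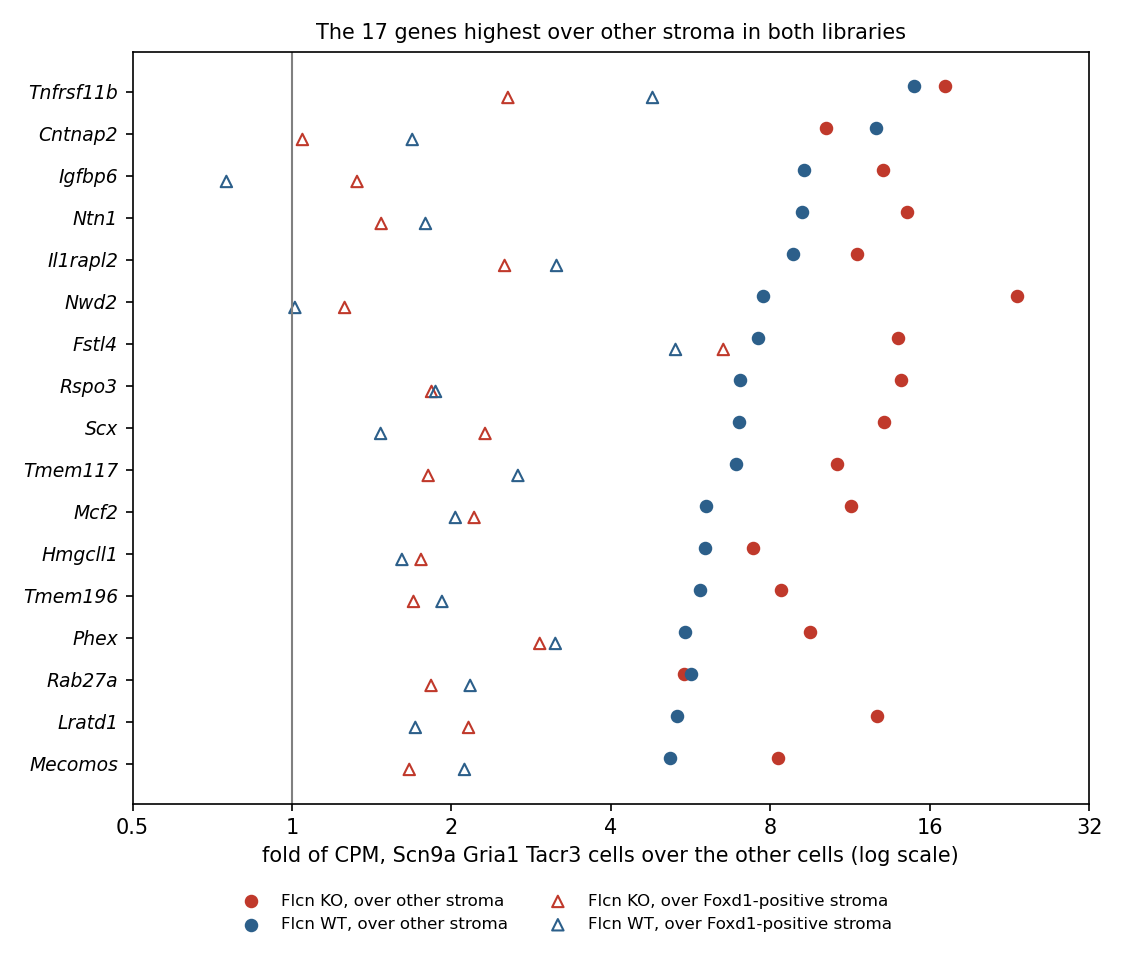
Fold of CPM (x axis, log scale) in Scn9a Gria1 Tacr3 cells over other stroma (filled circles) and over Foxd1-positive stroma (open triangles) for the 17 genes highest over other stroma (y axis), Flcn KO in red and Flcn WT in blue. All circles lie above 4-fold, while the triangles lie below 4-fold except the WT triangle of Tnfrsf11b (4.79) and both of Fstl4 (6.52 in KO, 5.30 in WT).

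Against Foxd1-positive stroma the folds were smaller. Stromal cells with 2 or more Foxd1 UMIs numbered 554 in the KO and 377 in the WT library and were outside the rule, although 74 and 62 of them otherwise met the rule on Scn9a, Gria1 and Tacr3. Of the members, 29 KO and 41 WT cells had 1 Foxd1 UMI. Over Foxd1-positive stroma, Ntn1 was 1.47-fold (KO) and 1.79-fold (WT) higher in members, Rspo3 1.83-fold and 1.87-fold, Cntn4 1.15-fold and 1.35-fold, and Aldh1a2 1.07-fold and 1.20-fold. Of all genes, 84 of 11698 genes (0.718%) were at least 2-fold higher than in Foxd1-positive stroma in both libraries, and 467 (3.99%) at least 2-fold lower. Without the 3 members with tubule RNA the counts were 80 and 527 of 11666, and 74 of the 80 were among the 84. The 10 highest were Fstl4, Slc7a12, Col25a1, Ass1, Ano3, Lrriq1, Fut9, Kap, Cltrn and Napsa. Without those 3 members, Slc7a12, Ass1, Fut9, Kap, Cltrn and Napsa had at most 1.09-fold in WT, with 0 to 6 UMIs in KO, whereas Fstl4 was at 6.54-fold and 5.48-fold, Col25a1 at 5.23-fold and 4.67-fold, Ano3 at 6.80-fold and 4.02-fold and Lrriq1 at 3.90-fold and 4.94-fold. Over all members, Fstl4 stood at 6.52-fold and 5.30-fold, and Col25a1, a transmembrane collagen of nerve and muscle, at 5.14-fold and 4.52-fold, with 185 CPM in KO and 150 CPM in WT members. Ano3, an anoctamin, was 6.68-fold and 3.89-fold higher. The lowest genes against Foxd1-positive stroma included podocyte genes: Nphs1 (nephrin) had 0 UMIs in KO and 1 in WT members and Ptpro 1 and 2, and all 7 listed podocyte genes were at least 2-fold lower in both libraries. Podocytes also express Foxd1, and the part of such cells in these folds was not tested.

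**Figure D3:**
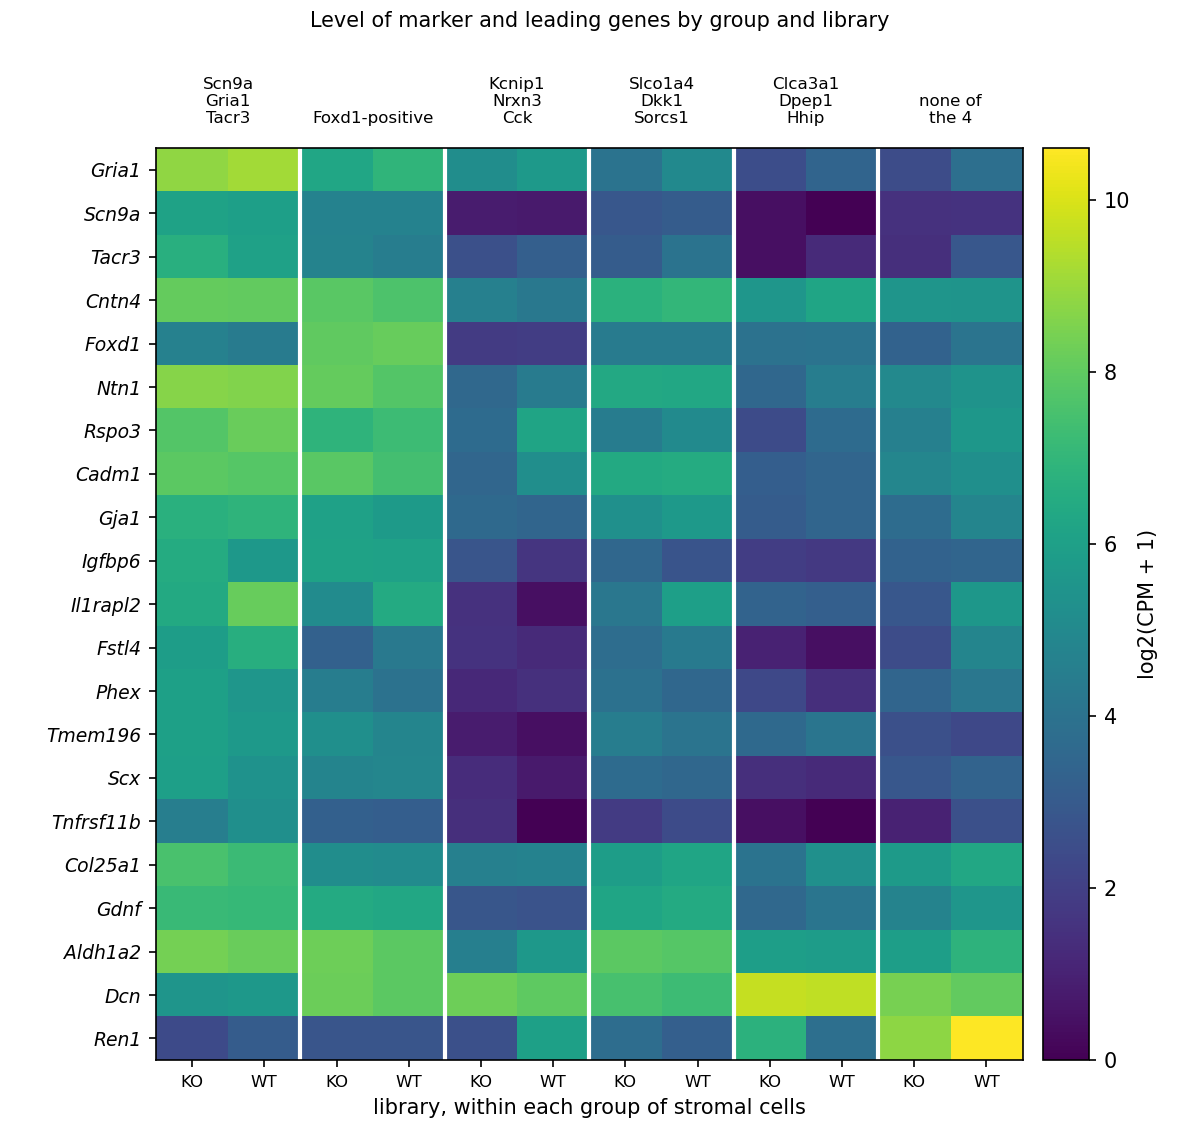
Level of marker and leading genes (rows) as log2(CPM + 1) (colour) in 6 groups of stromal cells, each with the Flcn KO column left of the Flcn WT column. Ntn1, Cadm1, Gdnf and Aldh1a2 are close in colour in the Scn9a Gria1 Tacr3 and Foxd1-positive columns, and Dcn is highest in the Clca3a1 Dpep1 Hhip columns.

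Many markers of other stromal states were low in members, though not all. Decorin (Dcn), a collagen-binding proteoglycan, was at 0.107 of the other stroma in KO and 0.140 in WT, and its relative lumican (Lum) had 2 and 5 UMIs. Zeb2 stood at 0.169 and 0.206, and Wnt4, a Wnt ligand of medullary stroma, at 0.120 and 0.109. The renin gene Ren1 had 5 UMIs in KO and 15 in WT members, at 0.0238 and 0.0158 of the other stroma. The smooth muscle and mural genes Cnn1 and Rergl had 0 UMIs in members of both libraries, and Trpc6 had 1 and 1. Of the listed mural and mesangial genes, 10 of the 12 measured were at least 2-fold lower in both libraries, and of the ureteric mesenchyme and smooth muscle genes 7 of 9, against 5.52% of all genes measured. Pdgfrb, a receptor of stromal and mural cells, was at 0.409 and 0.387 of the other stroma. For collagens and proteoglycans, 5 of 15 and 11 of 28 genes were at least 2-fold lower and 1 and 0 at least 2-fold higher, the 1 being Col25a1. Of 10 measured medullary genes 5 were at least 2-fold lower and 0 higher. Against Foxd1-positive stroma, 1 of 10 mural and mesangial and 1 of 5 ureteric mesenchyme and smooth muscle genes were at least 2-fold lower. Of collagens 2 of 14 were lower there and 1 higher, of proteoglycans 9 of 28 were lower, and of 9 medullary genes 2 were lower and 2 higher. Of all genes 3.99% were lower and 0.718% higher in that comparison. Medullary Penk, at 1.26-fold (KO) and 0.745-fold (WT) of the other stroma, was in 96.1% of KO and 87.4% of WT members, against 68.1% and 65.7% of all stromal cells. Of the marker sum that the rule set against these cells, Slco1a4 stood at 1.51-fold and 0.916-fold, Dkk1 at 1.05-fold and 0.343-fold and Sorcs1 at 0.547-fold and 0.318-fold of the other stroma, so 0 of these 3 passed 2-fold lower in both libraries.

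Guidance and growth factor genes stood on both sides of the other stroma. Besides Ntn1, the semaphorin Sema3d was 3.41-fold (KO) and 2.55-fold (WT) higher, and 8 of 27 guidance genes were at least 2-fold lower, Slit3 at 0.0648 and 0.0443 among them, and 2 higher, where 5.52% and 1.69% of all genes measured passed 2-fold lower and higher. Of 25 growth factor genes 4 were higher and 6 lower: Gdnf, Pdgfc (5.06-fold and 3.95-fold), Fgf2 (3.62-fold and 2.49-fold) and Igfbp5 (3.50-fold and 2.76-fold) were higher. Igfbp5, an IGF-binding protein, had 1413 UMIs in KO and 3131 in WT members. The imprinted gene Mest was 3.53-fold and 2.53-fold higher, with 1414 and 2159 UMIs. The posterior Hox genes, which mark position along the trunk, had 0 of 16 genes past 2-fold in either direction in both libraries. Against Foxd1-positive stroma, 1 of 24 guidance genes was at least 2-fold higher in both libraries and 5 were lower. Of 24 growth factor genes 1 was higher and 9 were lower there, where 0.718% and 3.99% of all genes were.

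Relatives of the marker genes stood above, near and below the other stroma. Of 6 measured voltage-gated sodium channel genes 2 were at least 2-fold higher in both libraries, Scn9a of the rule and Scn1a, and 1 was lower. Of 11 ionotropic glutamate receptor genes 2 were higher, Gria1 of the rule and Grik4, and 2 were lower. Of 16 potassium and calcium channel genes 1 was higher, Cacna2d3, and 5 were lower, among them the potassium channel genes Kcnd3 (0.130 of the other stroma in KO, 0.0483 in WT), Kcnk2 (0.228 and 0.211) and Kcnb2 (0.253 and 0.289). Of 7 partners of AMPA receptors 0 were higher and 1 lower, and of 7 contactins and partners 2 higher, Cntn4 and Cntnap2, and 0 lower. Over all genes measured, with the genes of the rule and Cntn4 left out, these shares were 1.69% higher and 5.52% lower. Scn9a and Gria1 were set by the rule and Cntn4 was picked as a marker from these libraries. Their part of the family counts is therefore no result. Against Foxd1-positive stroma, 1 of 5 sodium channel and 1 of 9 glutamate receptor genes were at least 2-fold higher, Scn9a and Gria1 of the rule. In these 2 families 0 genes were lower there. Of 16 potassium and calcium channel genes 1 was higher and 1 lower there, and of 7 contactins and partners 0 passed 2-fold. Of the sodium channels, Scn1a, the neighbour of Scn9a, had 30 UMIs in KO and 57 in WT members, 5.59-fold and 4.22-fold over other stroma, whereas Scn2a had 11 and 20, and Scn3a, Scn4a, Scn10a and Scn11a had 0 in both. Of the ionotropic glutamate receptors, Gria4 had 804 UMIs in KO and 1125 in WT members, close to the other stroma (1.08-fold and 0.822-fold), and the kainate receptor gene Grik4 had 157 and 275 (3.82-fold and 3.11-fold). Gria2, the subunit that limits calcium entry through AMPA receptors, had 1 and 4 UMIs. The calcium channel subunit gene Cacna2d3, with 406 and 656 UMIs, was 5.67-fold and 3.90-fold higher. Of the tachykinin genes, the ligand genes Tac1 and Tac4 had 0 UMIs and Tac2, which encodes neurokinin B, had 1 and 1, while Mme, a peptidase that cleaves tachykinins, had 105 and 214 and was 3.82-fold and 2.32-fold above other stroma. Markers of neurons summed to 8 UMIs in KO and 41 in WT members, with 10 and 8 of the 13 genes at 0, and glial markers to 14 and 24. Of the 41 neuron UMIs of WT members, 29 were in 1 cell. Endothelial markers summed to 77 and 109 UMIs, of which 16 and 41 were in 1 cell, ureteric bud markers to 37 and 83 and haemoglobins to 20 and 39.

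Clustering of the filtered cells without the marker genes of the rule, Cntn4 and Foxd1 placed most members together with Foxd1-positive cells. Col1a2, Col3a1, Pecam1 and Ptprc, by which the rule defines stroma, were not left out. The cluster that held most of them took 46 of 76 KO members (60.5%) and 62 of 111 WT members (55.9%), and also 172 KO and 107 WT Foxd1-positive cells, 31 and 39 cells of the Slco1a4 Dkk1 Sorcs1 group, and 0 cells of the other 2 groups in either library. Another cluster, led by Dgki, Gng8 and Cntnap5b, held 15 KO and 21 WT members, one led by cell division genes 9 and 17, and one led by Nts and Cpxm2 4 and 6. The members differed among these clusters in their own genes. Ntn1 measured 580 CPM (KO) and 589 CPM (WT) in the members of the main cluster, against 151 and 152 CPM in those of the Dgki cluster. Igfbp6 stood at 143 and 79.3 CPM in the main cluster and 24.5 and 12.4 CPM in the Dgki cluster. Penk, the enkephalin precursor, ran the other way, at 398 and 268 CPM in the main cluster and 1554 and 831 CPM in the Dgki cluster. The 4 KO and 6 WT members of the Nts cluster had Cdkn1c, a cell-cycle inhibitor of medullary stroma, at 6023 CPM in KO and 2982 CPM in WT and had 0 UMIs of Ntn1. Gria1 chose most of the members, so its presence in the members of each cluster was set by the rule and is no result. Its levels were 444 and 529 CPM in the main cluster and 609 and 815 CPM in the Dgki cluster. They were 307 and 609 CPM in the cell division cluster and 566 and 409 CPM in the Nts cluster.

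The shares of members with mitosis RNA overlapped between the libraries within counting error. After thinning each cell to 3000 UMIs, 25 of 76 KO members (32.9%, 22.5 to 44.6%) and 38 of 111 WT members (34.2%, 25.5 to 43.8%) had at least 2 UMIs over the mitosis genes, and the unthinned shares were 75.0% and 70.3%. The intervals overlap over most of their length, so a difference was not detectable at these cell numbers. In Foxd1-positive stroma the shares were 29.2% and 23.9%, in the Slco1a4 Dkk1 Sorcs1 group 25.5% and 44.8%, and in the Kcnip1 Nrxn3 Cck group 10.7% and 10.7%. Endothelial cells stood at 36.5% and 36.6%.

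Between the libraries most genes of the members were within 1.5-fold. Of 8338 genes with at least 50 UMIs, 310 (3.72%) had a KO over WT ratio of 1.5 or more and 523 (6.27%) a ratio of 1/1.5 or less. Asking that the interval bound nearest to 1 also passed 1.5 left 32 and 46. Over the 12851 genes with at least 10 UMIs, 49.8% had a ratio above 1, and 9.04% and 12.9% passed 1.5-fold in each direction. Folliculin (Flcn), which acts with its partners Fnip1 and Fnip2 on the Rag GTPases and so keeps the transcription factors Tfeb and Tfe3 out of the nucleus, had 8 UMIs in KO and 20 in WT members, a ratio of 0.681 (0.259 to 1.61). A tag at the 3′ end need not lie in the deleted exons, so this count does not check the deletion. The Cre was under Six2, a gene of nephron progenitors, and whether these stromal cells lost Flcn was not tested. Fnip1 stood at 121 and 210 UMIs (0.981, 0.778 to 1.23), Fnip2 at 38 and 48, Tfeb at 13 and 11, Tfe3 at 21 and 37 and Mitf at 32 and 51, and the intervals of all 6 ratios held 1. Gpnmb, a lysosomal membrane gene controlled by these factors, had 1 UMI in KO and 0 in WT members.

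The lysosomal lists had medians near a ratio of 1 over the members, but not with the rule on thinned cells. Of 39 lysosomal hydrolase and membrane protein genes with at least 10 UMIs, 20 were higher and 19 lower in KO members, 3 and 5 of them past 1.5-fold, with a median log2 ratio of 0.04, where 9.04% and 12.9% of all genes passed. Npc1, a lysosomal cholesterol transporter, had 32 UMIs in KO and 25 in WT members (2.18, 1.25 to 3.84), and the peptidase Tpp1 31 and 84 (0.628, 0.402 to 0.959). The 16 vacuolar ATPase subunits had 8 higher and 8 lower with a median of 0.00, and the 20 measured targets of Tfeb and Tfe3 had 9 higher with a median of -0.06. The medians with the rule on thinned cells were 0.40 for the hydrolases and membrane proteins, 0.43 for the ATPase subunits and 0.54 for the targets, and the targets had 0.29 with cells thinned before summing. Over all genes 6398 of 12851 were higher.

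DNA replication genes were lower in KO members. All 23 listed genes had ratios below 1 and 14 passed 1/1.5, where 12.9% of all genes with 10 UMIs did, and the median log2 ratio was -0.63. The helicase subunit Mcm5 had 35 UMIs in KO and 156 in WT members (29.4 and 77.1 CPM), a ratio of 0.382 (0.257 to 0.554). Gins2 had 32 and 117 UMIs (0.466, 0.305 to 0.693), the ribonucleotide reductase subunit Rrm2 32 and 112 (0.486, 0.318 to 0.726), and Pcna, the sliding clamp, 130 and 313 (0.707, 0.572 to 0.870). The licensing inhibitor Gmnn (36 and 149 UMIs, 0.411), the repair gene Brca1 (22 and 108, 0.347) and the cell-cycle repressor E2f7 (16 and 80, 0.340) were among the lowest genes of the members, but with a collagen limit of 20 per 10000 UMIs Gmnn and Brca1 had log2 ratios of 0.06 and 0.07 and the list a median of -0.14. The list was also lower in other stroma: its median was -0.46 in the Slco1a4 Dkk1 Sorcs1 group, -0.68 in stroma outside the 4 marker groups and -0.16 in Foxd1-positive stroma, while it was 0.17 and 0.03 in the other 2 groups.

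The median of the mitosis list was below 0 under most settings, but its interval held 0. Of 24 genes, 9 were higher in KO members, where 49.8% of all genes were, and the median log2 ratio was -0.12 (interval -0.20 to 0.11). The median was 0.47 with a collagen limit of 20 per 10000 UMIs, the only alternative above 0. It was -0.40 in the main cluster, -0.40 as a mean over cells and -0.25 with the rule on thinned cells. With cells thinned before summing it was -0.33, and without the richest cell of each gene -0.30. Under each other alternative it lay between -0.15 and -0.03. Cenpf, a kinetochore gene, had 319 UMIs in KO and 301 in WT members (1.80, 1.54 to 2.12) and the cyclin Ccnb1 85 and 83 (1.74, 1.27 to 2.39), but both stood under 1.5-fold, at 1.47 and 1.45, without the 1 cell richest in that gene in each library. Top2a, active in S and G2 phase, had 333 and 754 (0.752, 0.659 to 0.856). In Foxd1-positive stroma and in the Kcnip1 Nrxn3 Cck and Clca3a1 Dpep1 Hhip groups all 24 mitosis genes were above 1, with medians of 0.72, 0.62 and 1.33.

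**Figure D4:**
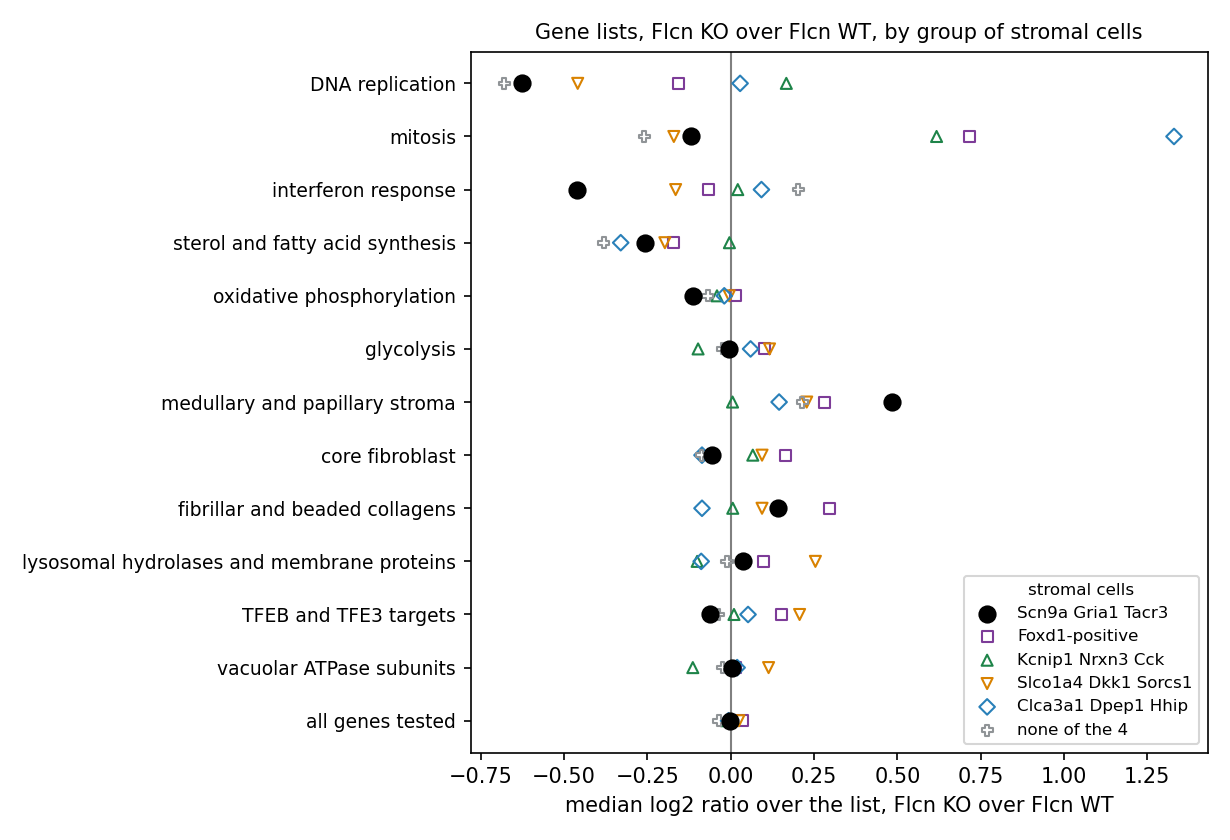
Median log2 ratio of each gene list, Flcn KO over Flcn WT (x axis), in the Scn9a Gria1 Tacr3 cells (filled circles) and 5 other groups of stromal cells (open symbols). In the Scn9a Gria1 Tacr3 cells DNA replication stands at -0.63 and the lysosomal lists stand within 0.10 of 0.

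Interferon-response genes were also lower in KO members, from low counts. All 14 genes with at least 10 UMIs had ratios below 1 and 7 passed 1/1.5, with a median log2 ratio of -0.46, where 12.9% of all genes passed 1/1.5 and 49.8% were above 1. Isg15 had 8 UMIs in KO and 38 in WT members (0.358, 0.144 to 0.780), Ifit3 2 and 28 (0.122, 0.014 to 0.482) and Irf9 24 and 72 (0.567, 0.342 to 0.912), while the antiviral membrane gene Ifitm3, with 442 and 910, was close (0.827, 0.736 to 0.927). Of the Ifit3 UMIs of WT members, 22 were in 1 cell, and its ratio was 0.559 without the cells rich in tubule RNA. The list had a median of 0.24 in the other stroma, but the groups of stroma differed. Its median was -0.17 in the Slco1a4 Dkk1 Sorcs1 group and -0.07 in Foxd1-positive stroma. It was 0.02 in the Kcnip1 Nrxn3 Cck group, 0.09 in the Clca3a1 Dpep1 Hhip group and 0.20 in stroma outside the 4 marker groups. In members the median was 0.20 with a collagen limit of 20 per 10000 UMIs. It was 0.17 with the rule on thinned cells and 0.01 with cells thinned before summing. Markers of immune cells summed to 4 UMIs in KO and 26 in WT members, with 4 of 8 genes at 0 in each, and their part in the result was not tested. Medullary stroma genes leaned the other way, with 6 of 8 higher in KO, 4 of them past 1.5-fold where 9.04% of all genes were, and a median of 0.48: Cdkn1c had 755 and 740 UMIs (1.74, 1.57 to 1.92), Penk 876 and 886 (1.68, 1.53 to 1.85) and the Wnt effector Lef1 139 and 123 (1.92, 1.5 to 2.47). Among members of the main cluster alone, Cdkn1c measured 286 CPM in KO and 278 CPM in WT, Penk 398 and 268 CPM, and the list had a median of -0.03, and with the rule on thinned cells its median was -0.84.

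The genes highest in KO over WT included several carried by few cells. Zbtb16, a transcription factor that glucocorticoids induce, had 56 UMIs in 12 of 76 KO members and 8 UMIs in 6 of 111 WT members, a ratio of 11.9 (5.65 to 28.9). It was above 1 in every other group of stroma, at 5.93, 7.65, 2.75 and 4.09 in the Kcnip1, Slco1a4, Clca3a1 and Foxd1 groups, and at 47.1 CPM in KO members it was under the 207.5 CPM of all KO stroma. Klf9, another glucocorticoid-induced gene, had 187 and 170 UMIs (1.87, 1.51 to 2.32), whereas Sgk1 had 7 and 36 (0.331, 0.124 to 0.754). Cntnap5b, of the contactin-associated family, had 63 UMIs in 8 KO members, 29 of them in 1 cell, and 7 in 3 WT members (15.3, 7.02 to 39.7). Opcml, an adhesion gene, had 48 UMIs, 25 of them in 1 KO cell, against 14 in WT members (5.84). Dpp10 (62 and 24 UMIs) and Gabrg3 (44 and 17) each had more than 30 UMIs in 1 KO cell and stood at 1.23 and 1.09 without the richest cell of each library. Gpx3 had 148 of its 167 KO UMIs in 1 cell and was at 1.47 without the richest cell of each library.

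Others were spread over many cells. Celf4, an RNA-binding protein, had 132 UMIs in 37 KO members (111 CPM) and 90 in 45 WT members (44.5 CPM), a ratio of 2.50 (1.90 to 3.30). Pcsk5, a proprotein convertase, had 131 in 44 KO members and 101 in 48 WT members (2.21, 1.69 to 2.89), with ratios of 0.860 to 1.14 in the 3 other marker groups and Foxd1-positive stroma. Tmtc4 was at 2.57 (1.86 to 3.57), the aminopeptidase gene Enpep at 2.09 (1.63 to 2.68), Cep89 at 2.50 (1.68 to 3.73) and Cyp2s1 at 2.68 (1.60 to 4.57). The stress gene Atf3 had 121 and 96 UMIs (2.15, 1.63 to 2.83), while the list of immediate-early and dissociation genes had a median of 0.08. Tbx3os1, a long noncoding RNA beside Tbx3, had 38 and 16 (4.04). Zim1 (3.26), the integrin gene Itgb8 (2.11) and Lmo2 (2.63) join the highest when the 3 cells with tubule RNA are left out. Tmtc4 (log2 ratio 0.05), Zim1 (0.045), Cyp2s1 (0.17), Tbx3os1 (0.18), Enpep (0.23) and Cntnap5b (0.40) were no longer past 1.5-fold with the rule on thinned cells. With a collagen limit of 20 per 10000 UMIs the same held for Cep89 (0.27) and Pcsk5 (0.45), and in the main cluster for Tmtc4 (0.26) and Tbx3os1 (0.48).

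Many of the lowest genes of KO over WT members lay in the few cells with proximal tubule RNA. The 14 lowest were Serpina6 (0 UMIs in KO, 229 in WT), Kap (3 and 455), Aadat, Cryab, Napsa, Anpep, Slco1a6, Slc7a12, Gpc5, Mep1a, Pkhd1, Aqp1, Cdh6 and Npnt, most of them genes of proximal tubule cells. In the WT library 2 members held 573 and 121 UMIs of the tubule list with Kap, and in the KO library 1 member held 93, where every other member held at most 4. These cells carried 448 of the 455 Kap UMIs of WT members, and without them Kap had a ratio of 0.718, Aadat 0.957, Anpep 0.838 and Npnt 0.617, while the glypican gene Gpc5 (0.104) and the cadherin gene Cdh6 (0.152) were still low. With the rule on thinned cells both had higher levels in KO, with log2 ratios of 2.89 and 3.87. Tubule markers over all members summed to 156 UMIs in KO and 323 in WT. The 2 counts at 1.5-fold became 313 and 496 without these 3 cells. The replication list then had a median of -0.65.

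Without those cells, the lowest genes included several spread over many members. Il1rapl2, one of the genes highest in these cells over other stroma, had 102 UMIs in 21 of 76 KO members (85.8 CPM) and 564 in 53 of 111 WT members (279 CPM), a ratio of 0.308 (0.247 to 0.381). It was also lower in Foxd1-positive stroma (0.386) and in the Slco1a4 group (0.274), but was 1.12 in the Clca3a1 group and 5.23 in the Kcnip1 group, where it was rare. Vegfc, a lymphatic growth factor, had 11 UMIs in 8 KO members and 72 in 37 WT members (0.260, 0.124 to 0.494), with ratios of 0.844 to 1.04 in the 3 other marker groups and Foxd1-positive stroma. Col8a2, a short-chain collagen, had 12 and 67 (0.305, 0.150 to 0.568), and the kinase gene Pak7 35 and 141 (0.423, 0.283 to 0.616; log2 ratio -0.55 with the rule on thinned cells). S100g, a calcium-binding protein of distal tubule cells, had 16 and 120 UMIs, at most 1 and 5 in a cell, and had ratios of 0.0632 to 0.329 in the 3 other marker groups and Foxd1-positive stroma. Akr1b3 had 210 of its 285 WT UMIs in 1 cell and stood at 1.23 without the richest cells. Spon1 had 29 of 50 WT UMIs in 1 cell.

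**Figure D5:**
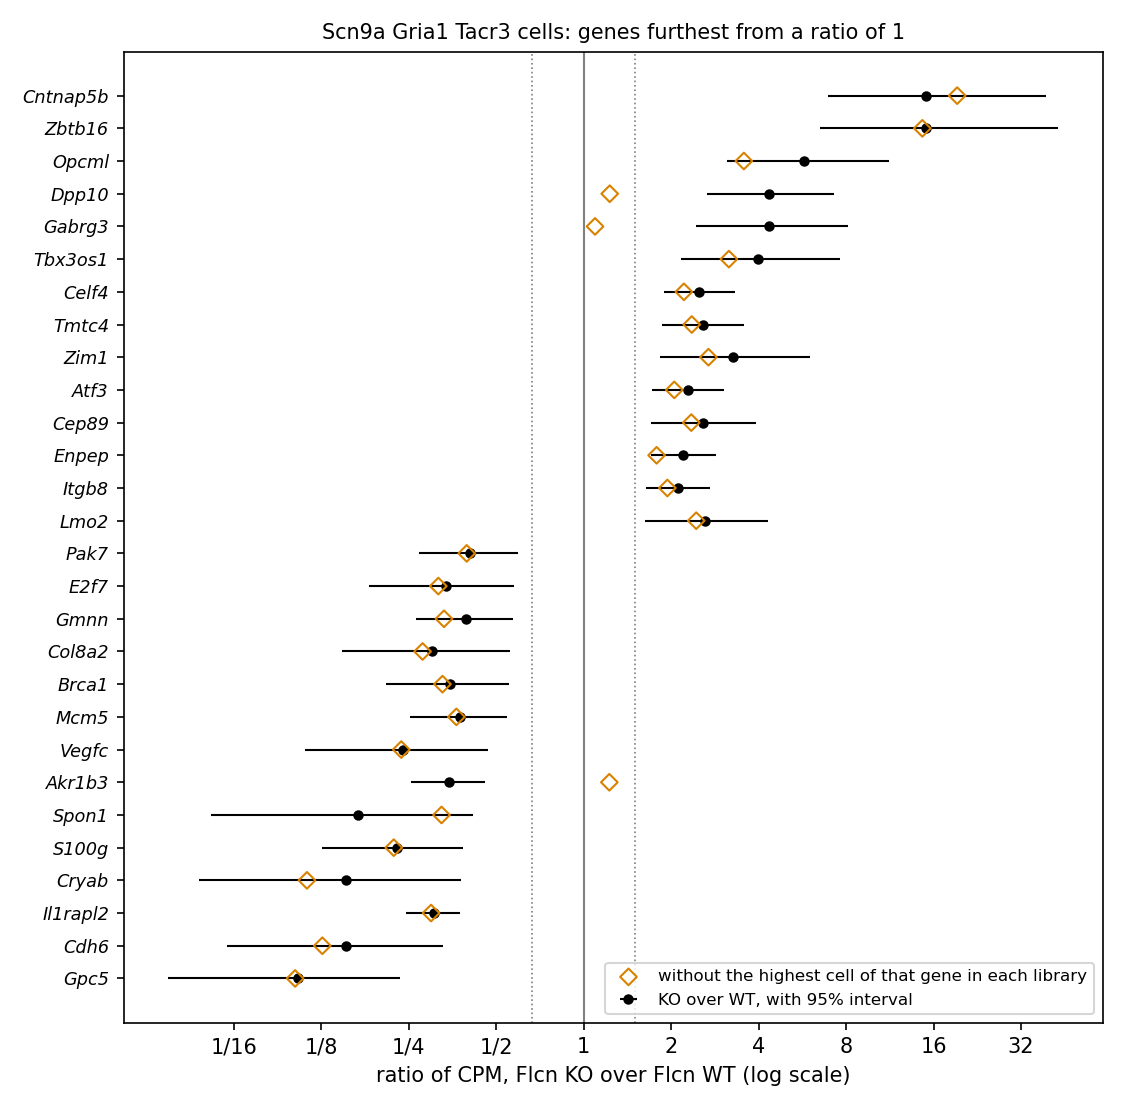
Ratio of CPM, Flcn KO over Flcn WT (x axis, log scale), for the 14 highest and 14 lowest genes of the Scn9a Gria1 Tacr3 cells (y axis) without the 3 members that held proximal tubule RNA; black points carry exact 95% counting intervals, diamonds are ratios over all members without the richest cell of each library, and dotted lines mark 1.5-fold. The diamonds of Dpp10, Gabrg3 and Akr1b3 lie inside the dotted lines and the others lie outside.

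Further genes with a role in matrix and signalling differed between the libraries. Among 22 matrix enzymes and inhibitors, 1 passed 1.5-fold higher and 5 lower, where 9.04% and 12.9% of all genes did: the crosslinking enzyme Lox had 60 UMIs in KO and 62 in WT members (1.65, 1.14 to 2.39), and the proteases Adamts1 (55 and 158, 0.593) and Adamts5 (45 and 148, 0.518) were lower. The basement membrane collagen Col15a1 had 58 and 44 (2.24, 1.49 to 3.40) and Col26a1 84 and 71 (2.01, 1.45 to 2.80). Rspo3 (0.738, 0.634 to 0.856, inside 1.5-fold), the Wnt ligand Wnt5b (108 and 293 UMIs, 0.627, 0.499 to 0.785) and the netrin receptor Unc5c (254 and 688, 0.628, 0.542 to 0.727) were lower in KO members, and Gdnf had 170 and 273 UMIs with levels of 143 and 135 CPM. Their lists did not lean lower. Of 16 Wnt genes 10 were higher, 3 passed 1.5-fold higher and 3 lower, and the median log2 ratio was 0.13. Of 23 guidance genes 14 were higher, 1 passed 1.5-fold higher and 2 lower, and the median was 0.06. The fibrillar and beaded collagens had a median log2 ratio of 0.14, with 8 of 14 higher, and the core fibroblast genes -0.06, with 5 of 12 higher.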

How the data were processed

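The deposited matrices hold counts of UMIs per gene and cell barcode as the authors made them, with Cell Ranger 7.1.0 (KO) and 7.0.0 (WT) per the file headers. STAR 2.7.2a, bcl2fastq 2.20.0 and the GRCm38 build are named in the submitters' processing notes. Which annotation was used, whether intronic reads were counted and which exons of Flcn are deleted is not stated in the labels or headers. Gene IDs, symbols and barcodes come from the deposited feature and barcode lists. Cells had been called before deposit.

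Cells were filtered and chosen by the stated rule, UMIs were summed over cells per library, and CPM was taken over nuclear-encoded UMIs. Ratios carry exact conditional 95% intervals and shares exact Clopper-Pearson 95% intervals, which cover counting error only. Log2 ratios add 0.5 UMI. A gene was called in KO over WT at 1.5-fold with at least 50 UMIs, and over other stroma at 2-fold in both libraries. Lists were read over genes with at least 10 UMIs, and a share of 0 allows up to 3 counts of the total. Foxd1-positive stroma passed the same collagen, Pecam1 and Ptprc limits with at least 2 Foxd1 UMIs. Clusters were Leiden clusters of all filtered cells of both libraries (scanpy 1.11.5, 2000 variable genes, 40 components, 20 neighbours, resolution 1). They were found without the marker genes of the rule, Cntn4 and Foxd1, but Col1a2, Col3a1, Pecam1 and Ptprc were not left out. Doublets were left in for the values of the report, since the rule has no doublet step. Scrublet's own threshold marked 2 KO and 41 WT cells, so the cells with its highest scores (4.79% and 4.46%) were left out as an alternative. Other scalings used edgeR 4.0.16 and DESeq2 1.42.0 under R 4.3.3. The ratios with their intervals and the thinning were tested on simulated Poisson counts, which hold no spread between cells for the ratios. The rule, the clusters and the lists were not tested on simulated data.

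Genes named for KO over WT were the 14 highest and 14 lowest by the interval bound nearest to 1, with at least 20 CPM in 1 library. Those named over other stroma were the 20 highest and 10 lowest, and up to 4 came from each list by distance from a ratio of 1. Further genes of the lists, and those over Foxd1-positive stroma, were chosen after their values were seen. The members and lists were chosen with earlier results of these data known. A gene that this choice of named genes picks is not reported here.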

Additional observations from a re-analysis of the deposited data

Results flagged for a closer look

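Among 42 named genes, 7 had a KO over WT ratio in the Scn9a Gria1 Tacr3 cells on the other side of 1 from another marker group. Both ratios were past 1.5-fold with intervals that excluded 1. The member ratio also stayed past 1.5-fold without the members rich in tubule RNA and without the richest cells. These 42 genes were chosen for member ratios far from 1, and the share over all genes was not taken. The difference between the groups was not tested for any of the 7, since each genotype has 1 library. Cntnap5b had a ratio of 15.3 in members, against 0.639 (0.523 to 0.779, from 171 KO and 247 WT UMIs) in the Slco1a4 Dkk1 Sorcs1 cells, and 29 of its 63 KO member UMIs were in 1 cell. Opcml had 5.84 in members, against 0.574 (0.430 to 0.766) in the Clca3a1 Dpep1 Hhip cells. When the rule was applied to thinned cells, Opcml had a member log2 ratio of -0.90, on the same side as those cells, and Cntnap5b one of 0.40, which is inside 1.5-fold.

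The nephron genes Gpc5, Pkhd1, Cdh6 and Npnt had ratios of 0.0873, 0.0587, 0.118 and 0.154 in members. In the Slco1a4 Dkk1 Sorcs1 cells Gpc5 had 1.82 (1.49 to 2.21), Pkhd1 3.51 (2.46 to 5.10), Cdh6 3.60 (2.70 to 4.86) and Npnt 2.53 (1.96 to 3.28). Without the 3 members that held tubule RNA, Gpc5 had 0.104, Cdh6 0.152 and Npnt 0.617 in members. Their member log2 ratios with the rule on thinned cells were 2.89 for Gpc5, 4.66 for Pkhd1, 3.87 for Cdh6 and 3.27 for Npnt, and the opposite sides were gone. E2f7 had 0.340 in members, against 1.69 (1.12 to 2.61, from 105 KO and 31 WT UMIs) in the Clca3a1 Dpep1 Hhip cells, and its member log2 ratio was -0.27 with cells thinned before summing.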

How the results depend on the processing

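The lower share of members in KO stroma was seen under all alternatives run. It was 3.12% in KO and 9.79% in WT with at least 6 UMIs of the 3 genes, 2.20% and 6.35% with a collagen limit of 20 per 10000 UMIs, and 3.22% and 8.05% with the rule on cells thinned to 5000 UMIs. The main cluster held 72.4% of KO and 67.6% of WT members at resolution 0.5, and 72.4% and 66.7% at resolution 2. The counts past 1.5-fold, higher and lower in KO, were 719 and 1091 with at least 20 UMIs, 51 and 50 with at least 200 UMIs, 165 and 193 with cells thinned before summing, and 32 and 46 with the fold on the interval bound. The lower count was 255 with the collagen limit of 20, and the higher count 698 with the rule on thinned cells. Among members of the main cluster, a setting chosen after seeing the data like the 2 that leave out members, the lower count was 335. The higher share of all calls was 37.2%, but 59.0% with the rule on thinned cells, 47.3% with the collagen limit of 20, 50.5% with at least 200 UMIs and 27.0% without the richest cell of each gene. Other scalings shifted log2 ratios by -0.0186 (TMM) and -0.0191 (median of ratios).

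Log2 ratios changed sign as follows, and the cause was not tested. With the rule on thinned cells Opcml was -0.90, Aadat 3.20, Napsa 4.22, Anpep 2.04, Slc7a12 4.98, Gpc5 2.89, Mep1a 4.84, Pkhd1 4.66, Cdh6 3.87 and Npnt 3.27. With the collagen limit of 20 Gpx3 was -0.90, Brca1 0.067 and Gmnn 0.058. Npnt was 0.074 with at least 6 UMIs, Gpx3 -0.83 without the highest Scrublet scores, and Aadat 0.0077 without the members rich in tubule RNA. In the main cluster Gabrg3 was -0.21, Gpc5 1.25 and Akr1b3 0.11, and without its richest cells Akr1b3 was 0.30. Of 532 values for 42 named genes, 438 stayed within counting error, 74 moved beyond it and 20 changed sign. With the rule on thinned cells, 19 of the 39 with a value were no longer past 1.5-fold in their direction, against 8 of 31 in the main cluster, 6 of 27 with the collagen limit of 20 and 0 to 4 under each other setting. Of 504 medians of 36 lists, 34 moved beyond the interval of the median, or by 0.5 or more for short lists without one. A setting that left a gene under 10 UMIs gave no value.

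No paired analysis was possible because each genotype has 1 library. Leaving out a library leaves no comparison. With 76 and 111 members, genes under 50 UMIs rest on few cells.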
